A study of Mus musculus with 32 samples.

Results

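The comparison described here set organoids of the Mettl3 knockout line (KO) against wild-type organoids (WT) at day 6, over all genes, to ask which regional and cell identities stood in the place of the eye field. It used 4 of the 32 libraries of the series, 2 per group, chosen by genotype and day as labelled. Of the 55492 rows of the expression table, 16276 genes reached 1 FPKM in at least 2 of the 32 libraries and were tested. WT is Rx:GFP, a mouse embryonic stem cell line named for a GFP reporter of Rx (Rax), and KO is labelled by its genotype, Mettl3 KO. Mettl3 encodes the catalytic subunit of the complex that writes N6-methyladenosine (m6A) on messenger RNA. Both groups were grown as organoids in medium with AGN at 0.1 µM, and neither received dexamethasone. The labels do not say where Mettl3 was disrupted, whether KO is 1 clone, or whether the duplicates came from separate cultures. The protocol gives 2 rounds of library preparation for the duplicates, so the p-values measure the spread between these libraries, which may be technical.

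The vertebrate eye field is a single domain of the anterior neural plate in which transcription factors such as Rax, Six3, Six6, Lhx2 and Pax6 are expressed together. It forms where Wnt signals are kept low, between the future telencephalon in front and the future caudal diencephalon and midbrain behind. The more caudal plate is exposed to Wnt ligands and expresses Iroquois (Irx) genes, and its lateral edge, the neural plate border, gives rise to the roof plate and the neural crest. Neural progenitors then leave the cell cycle under proneural transcription factors, whose activity is held back by Notch signalling and Hes genes.

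Expression is given as FPKM, fragments per kilobase of transcript, scaled to the mapped total of each library. A gene was called where the adjusted p was under 0.05, and "changed by at least 1" means called with a difference of at least 1 in log2(FPKM + 1), KO minus WT. Of all tested genes, 10591 (65.1%) were called, with 5029 higher (30.9%) and 5562 lower (34.2%) in KO. The difference reached at least 1 for 1630 genes (10% of those tested), of which 866 were higher (5.32%) and 764 were lower (4.69%) in KO. The 2 WT and 2 KO values did not overlap in 1628 of them, and 1433 of them were protein coding. Nor did the values overlap in 10575 of the 10591 called genes, so non-overlap adds little to a call. The median change over all tested genes was -0.03. These shares and this median are the background of every list and family count below. The lists were chosen with earlier results of these data known, so their counts are a description. The 4 libraries held an estimated 37.85 to 46.35 M (mega) fragments, so that a 2 kb transcript with 3 fragments stands at 0.038 to 0.046 FPKM, a limit that covers counting error only. Because the scale adds 1 FPKM to each value, it understates changes of genes at low levels, and for a gene near 0 in a group it is no bound on the fold. In these whole organoids fewer cells of a type and less RNA per cell cannot be told apart.

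Mettl3 RNA itself was at 36.3 and 35.1 FPKM in WT and at 37.9 and 37.3 FPKM in KO, a change of 0.07 ± 0.062 (SE) that was not called (adjusted p = 0.33). Mettl3 RNA was thus not lower in KO and gives no check of the genotype, since the labels do not say which part of the gene was disrupted or whether its RNA is lost. The eGFP row of the table, the reporter named in the line, stood at 200.3 and 189.6 FPKM in WT and at 0 and 0.29 FPKM in KO.

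**Figure D1:**
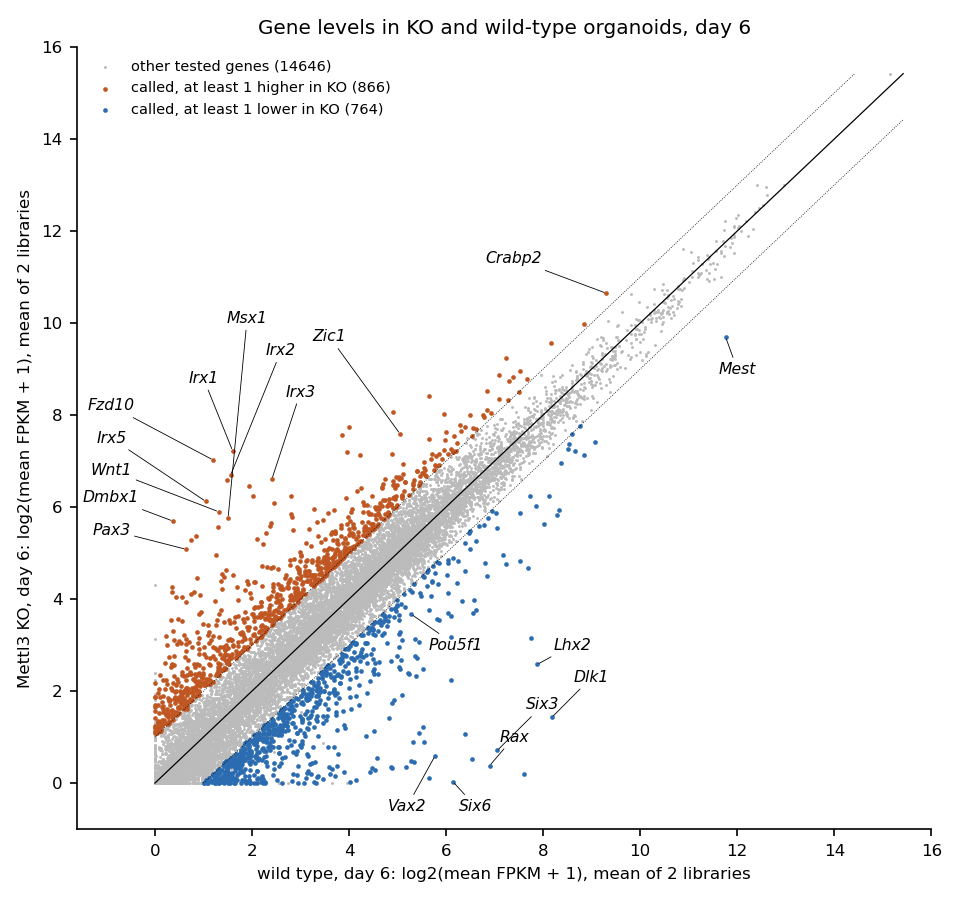
Mean expression of the 16276 tested genes at day 6, as log2(mean FPKM + 1), in WT (horizontal axis) and KO (vertical axis), each the mean of 2 libraries, with lines at equal levels (solid) and at a difference of 1 (dotted). Orange points are the 866 genes that were called and at least 1 higher in KO, blue points the 764 that were called and at least 1 lower, with Irx1, Fzd10, Dmbx1 and Wnt1 far above the solid line and Rax, Six3, Six6 and Dlk1 far below it.

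Most eye field genes fell to low levels in KO organoids. Of 9 listed genes, 6 fell by at least 1 (Rax, Six3, Six6, Lhx2, Nr2e1 and Tbx3) and 1 rose (Mab21l2), beside 4.69% lower and 5.32% higher by as much among all tested genes. The median of the list was -3.14, against -0.03 over all tested genes. Rax, the homeobox gene that specifies the eye field, was at 122 and 115 FPKM in WT and at 0.28 and 0.32 FPKM in KO (-6.52 ± 0.063 (SE), adjusted p = 2.9e-23). Six3, which represses Wnt genes in the anterior plate, was at 138 and 126 FPKM in WT and at 0.69 and 0.58 FPKM in KO (-6.34 ± 0.07 (SE), adjusted p = 9.1e-23). Six6, a close relative of Six3, was at 70.3 and 69 FPKM in WT and at 0.02 and 0.02 FPKM in KO, the KO values lying under the level of 3 fragments on a 2 kb transcript (-6.11 ± 0.055 (SE)). Both WT libraries were high and both KO libraries near 0 for each of these genes, with no overlap. Lhx2, a LIM homeobox gene needed for the optic vesicle, was at 239.8 and 228 FPKM in WT and at 4.59 and 5.35 FPKM in KO (-5.301 ± 0.14 (SE)). Tbx3, a T-box repressor, passed the size of 1 by little (-1.01), and its change was -0.74 without the second KO library and -0.97 without the first WT library.

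Pax6, the gene best known for eye development and expressed in most of the dorsal forebrain and hindbrain as well, did not follow them. It was at 111 and 109 FPKM in WT and at 111 and 112 FPKM in KO, a change of 0.02 ± 0.15 (SE) (adjusted p = 0.93), and all 4 libraries lay between 109.07 and 112.15 FPKM. Otx2, the head organiser gene shared by eye field, forebrain and midbrain, was higher in KO, at 105 and 104 FPKM in WT and at 203 and 204 FPKM in KO (0.95 ± 0.029 (SE), adjusted p = 6.3e-16), short of a change of 1. Mab21l2, which is expressed in the optic vesicle and also in the dorsal midbrain, rose from 14.5 and 15.7 FPKM in WT to 212 and 211 FPKM in KO (3.73 ± 0.05 (SE)), the opposite direction to the other changed genes of the list.

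Genes of the optic vesicle and early neural retina were also lower in KO. Of 11 tested genes 7 fell by at least 1 and none rose by as much (median -1.77). Vax2, a ventral optic vesicle factor, was at 54.3 and 52.9 FPKM in WT and at 0.57 and 0.44 FPKM in KO (-5.18 ± 0.14 (SE), adjusted p = 9.8e-17). Hmx1, a factor of the nasal retina, was at 27.8 and 28.6 FPKM in WT and at 0.29 and 0.24 FPKM in KO (-4.53 ± 0.13 (SE)). Both genes were well expressed in each WT library and under 1 FPKM in each KO library. Aldh1a3, an enzyme that makes retinoic acid in the ventral retina, fell from 12.1 and 12.2 FPKM to 0.11 and 0.13 FPKM (-3.55 ± 0.064 (SE)). Of 6 tested genes of the retinal pigment epithelium, 4 fell by at least 1 (median -1.66): Mitf, Dct, Pmel and Trpm1, each between 2.25 and 6.03 FPKM in the WT libraries and at or under 1 FPKM in the KO libraries.

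Most telencephalic and anterior neural ridge genes were lower in KO as well. Of 12 tested genes, 6 fell by at least 1 and 2 rose (median -1.19). Fezf1, a zinc finger factor of the rostral forebrain, was at 45.8 and 45.8 FPKM in WT and at 0.76 and 0.97 FPKM in KO (-4.65 ± 0.048 (SE), adjusted p = 4.3e-23), and Hesx1, expressed in the anterior plate, was at 13.7 and 14.1 FPKM in WT and at 0.13 and 0.24 FPKM in KO (-3.65 ± 0.13 (SE)). In both the groups were well apart. The genes that rose were Dmrt3, at 10.9 and 10.8 FPKM in WT and at 57.02 and 58.2 FPKM in KO (2.31 ± 0.14 (SE)), and Dlx2, at 0.15 and 0.29 FPKM in WT and at 2.41 and 2.45 FPKM in KO (1.49 ± 0.079 (SE)). Dmrt3 is known from the dorsal telencephalon and from spinal interneurons, and Dlx2 from the ventral telencephalon, the ventral diencephalon and the migrating neural crest. The 4 tested hypothalamic genes gave no change of at least 1 in either direction, and Nkx2-1, the defining marker of the ventral hypothalamus, was not tested, at 0.71 and 0.86 FPKM in WT and at 0 and 0 FPKM in KO.

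**Figure D2:**
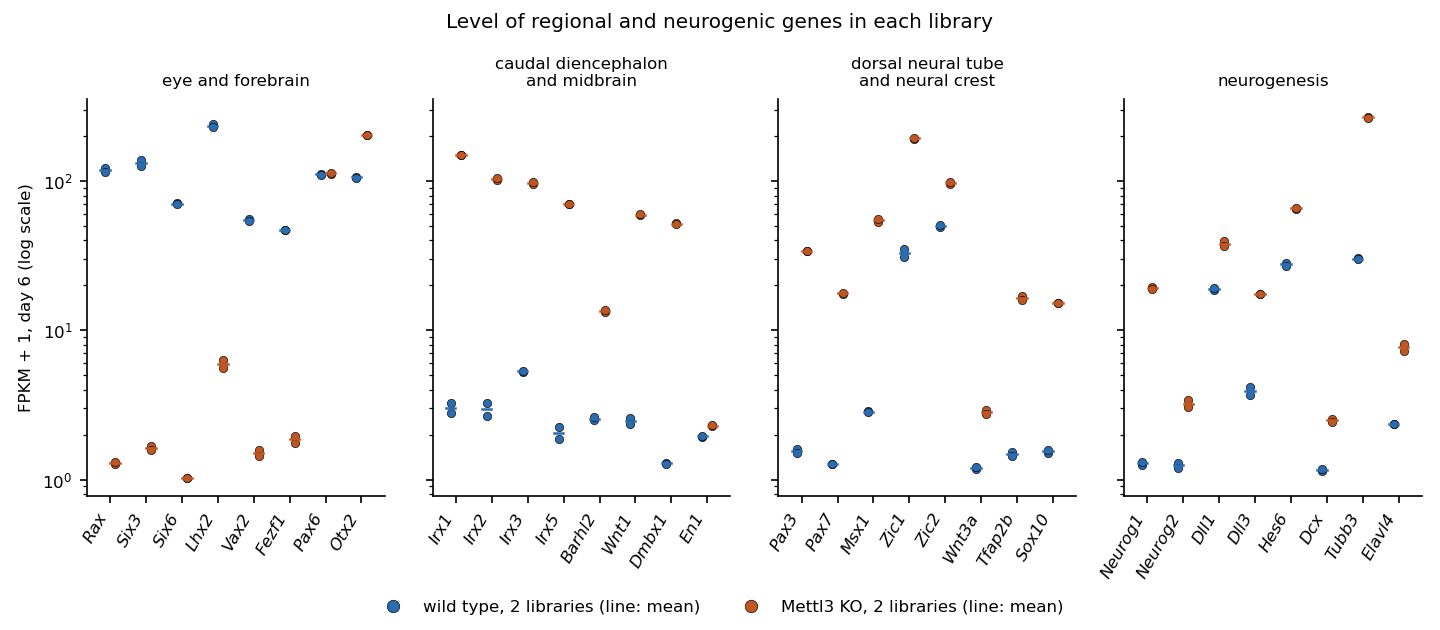
FPKM + 1 (log scale) of 32 genes in each day 6 library, blue for the 2 WT and orange for the 2 KO libraries, with a line at each group's mean. In the eye and forebrain panel Rax, Six3, Six6, Lhx2, Vax2 and Fezf1 are high in WT and low in KO while Pax6 is level, and in the other panels nearly all genes are higher in KO, with En1 low in both groups.

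Most tested genes of the caudal diencephalon rose in KO. Of 13 tested genes of the caudal diencephalon, 10 rose by at least 1 and 1 fell (median 2.4), beside 5.32% and 4.69% of all tested genes. As for the other lists, this is a description, since the members were chosen with earlier results of these data known. Irx1 was at 2.25 and 1.81 FPKM in WT and at 149 and 148 FPKM in KO (5.63 ± 0.11 (SE), adjusted p = 1.0e-18). Irx2, its neighbour on chromosome 13, was at 2.25 and 1.65 FPKM in WT and at 101 and 105 FPKM in KO (5.14 ± 0.14 (SE)). The Iroquois genes encode homeobox factors expressed behind the anterior forebrain, and they were low in both WT libraries and high in both KO libraries. Irx3 was at 4.26 and 4.38 FPKM in WT and at 95.3 and 98.2 FPKM in KO (4.2 ± 0.058 (SE)), and Irx5 was at 0.87 and 1.25 FPKM in WT and at 68.8 and 68.9 FPKM in KO (5.09 ± 0.091 (SE)). Of the whole Irx family, 4 of 5 tested genes rose by at least 1, and the summed level was 9.8 and 9.2 FPKM in WT against 415 and 421 FPKM in KO.

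Irx3 and Irx5 lie on chromosome 8, whose genes as a whole were higher in KO. The median change of its 858 tested genes was 0.35, against -0.05 on all other chromosomes, and 14% of them rose by at least 1 while 1.98% fell by as much. The gap between the medians widened with time, being 0.05 in stem cells, 0.16 on day 2, 0.28 on day 4 and 0.398 on day 6. The changes of Irx3 and Irx5 were 4.2 and 5.09, and Irx1 and Irx2 are not on that chromosome. The part of chromosome 8 in the single results was not tested.

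Other genes of the caudal diencephalon stood at lower levels. Barhl2, a homeobox gene of the caudal forebrain, was at 1.5 and 1.63 FPKM in WT and at 12.4 and 12.7 FPKM in KO (2.399 ± 0.049 (SE)), and Barhl1 was at 0.08 and 0.24 FPKM in WT and at 4.79 and 5.42 FPKM in KO (2.397 ± 0.1 (SE)). Wnt3, a ligand gene of the dorsal caudal diencephalon and neural tube, was at 0.21 and 0.14 FPKM in WT and at 8.02 and 8.21 FPKM in KO (2.96 ± 0.056 (SE)). For these 3 genes each KO value lay above both WT values. Lhx5, a LIM homeobox gene, was the one that fell, from 12.7 and 13.6 FPKM to 5.1 and 5.18 FPKM (-1.204 ± 0.058 (SE)). Tcf7l2 and Wnt8b were called lower with changes of -0.85 and -0.39.

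Of 13 midbrain genes 7 rose by at least 1 and none fell by as much (median 1.31). Dmbx1, a homeobox gene of the midbrain and caudal diencephalon, was at 0.3 and 0.28 FPKM in WT and at 51.3 and 50.5 FPKM in KO (5.33 ± 0.053 (SE), adjusted p = 3.1e-23). Pax7, which marks the dorsal midbrain, was at 0.28 and 0.28 FPKM in WT and at 16.6 and 16.8 FPKM in KO (3.79 ± 0.055 (SE)). Its relative Pax3, which marks the whole dorsal neural tube, was at 0.61 and 0.5 FPKM in WT and at 32.96 and 32.8 FPKM in KO (4.45 ± 0.058 (SE)). Otx1, a relative of Otx2 expressed in fore- and midbrain, was at 8.83 and 8.48 FPKM in WT and at 60.6 and 61.6 FPKM in KO (2.69 ± 0.043 (SE)). Lmx1a, a factor of the roof plate and the ventral midbrain, was at 0.21 and 0.22 FPKM in WT and at 5.73 and 5.72 FPKM in KO (2.47 ± 0.066 (SE)). All of these were near 0 or low in both WT libraries, except Otx1.

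Of the genes of the isthmus, the boundary between midbrain and hindbrain, Wnt1 was the one that rose by at least 1. En1, an engrailed gene of midbrain and anterior hindbrain, was at 0.92 and 0.97 FPKM in WT and at 1.29 and 1.31 FPKM in KO (0.24 ± 0.095 (SE), adjusted p = 0.032), and its relative En2 was at 1.86 and 2.13 FPKM in WT and at 1.65 and 1.64 FPKM in KO (-0.18 ± 0.095 (SE), not called, adjusted p = 0.11). Fgf8, the signal of the isthmus and also of the anterior ridge, was at 5.09 and 4.53 FPKM in WT and at 3.6 and 3.05 FPKM in KO (-0.43 ± 0.16 (SE), adjusted p = 0.022). The call of En1 was lost without any 1 of the 4 libraries (adjusted p from 0.071 to 0.12), and that of Fgf8 without the first WT library (adjusted p = 0.13) or the second KO library (adjusted p = 0.15). Of 10 boundary genes 1 rose by at least 1 and 3 fell (median -0.43). Wnt1, the ligand of the caudal midbrain and of the dorsal midline, was at 1.6 and 1.36 FPKM in WT and at 57.96 and 59.4 FPKM in KO (4.59 ± 0.049 (SE), adjusted p = 5.9e-23). Those that fell were Pax2, Spry1 and Spry2, and Pax2, which is expressed in the ventral optic vesicle as well as at the isthmus, was at 40.1 and 38.9 FPKM in WT and at 0.4 and 0.36 FPKM in KO (-4.88 ± 0.049 (SE)).

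Markers of levels behind the isthmus were low in both groups. Gbx2, the hindbrain counterpart of Otx2, was at 0.66 and 0.65 FPKM in WT and at 0.3 and 0.3 FPKM in KO (-0.35 ± 0.071 (SE)). Of 39 Hox genes in the table, which mark the hindbrain and spinal cord, 5 were tested and none changed by at least 1, and their tested members summed to between 0.3 and 0.6 FPKM in every library of the comparison. Hoxb2 was called higher (0 and 0 FPKM in WT, 0.33 and 0.19 FPKM in KO), and 2 Hox genes were called lower. Of 6 tested hindbrain genes, 1 rose and 1 fell by at least 1, and the 6 summed to 5.9 and 5.8 FPKM in WT and to 5.3 and 5.4 FPKM in KO. The 2 tested genes of the spinal cord and tailbud list were not called.

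**Figure D3:**
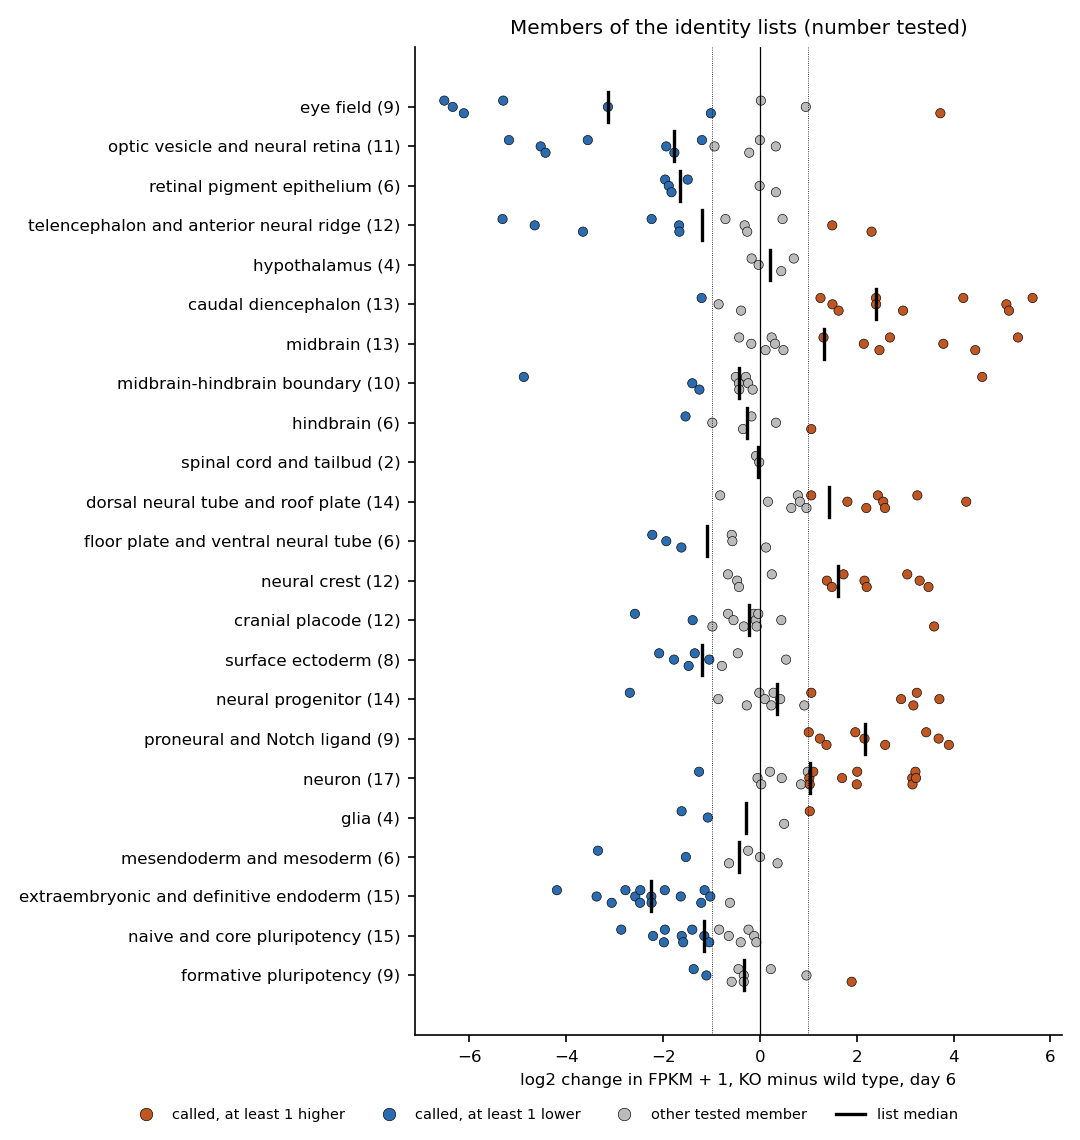
Change in log2(FPKM + 1) at day 6, KO minus WT, of each tested member of 23 lists of identity genes, with the number tested in brackets, a black bar at the list median, orange and blue for members called and at least 1 higher or lower, and grey for the others. The eye field, optic vesicle and telencephalon lists lie mostly to the left of 0, and the caudal diencephalon, midbrain, dorsal neural tube, neural crest and proneural lists mostly to the right.

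Genes of the dorsal neural tube and roof plate were higher in KO. Of 14 tested genes, 8 rose by at least 1 and none fell by as much (median 1.43). Msx1, a homeobox target of BMP signals in the roof plate and neural crest, was at 1.87 and 1.82 FPKM in WT and at 52.5 and 54.5 FPKM in KO (4.26 ± 0.091 (SE), adjusted p = 2.8e-18). Zic1, a zinc finger gene of the dorsal neural tube, was at 34.02 and 30.2 FPKM in WT and at 189 and 195 FPKM in KO (2.55 ± 0.12 (SE)). Rspo1, a secreted amplifier of Wnt signalling, was at 4.26 and 4.28 FPKM in WT and at 49.5 and 48.9 FPKM in KO (3.25 ± 0.11 (SE)). Each of these separated the groups without overlap, and Zic1 was already well expressed in WT. Zic2, Zic4 and Zic5 were called higher with changes between 0.78 and 0.96.

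Ventral genes did not share this. Of 6 tested genes of the floor plate and ventral neural tube, 3 fell by at least 1 and none rose (median -1.1). Ntn1, the floor plate guidance cue, was at 12.4 and 13.3 FPKM in WT and at 2.53 and 2.72 FPKM in KO (-1.93 ± 0.086 (SE)), and Spon1, another floor plate matrix gene, was at 7.03 and 6.98 FPKM in WT and at 0.75 and 0.68 FPKM in KO (-2.22 ± 0.053 (SE)). Foxa2, which marks both floor plate and endoderm, was at 3.29 and 3.39 FPKM in WT and at 0.44 and 0.38 FPKM in KO (-1.62 ± 0.12 (SE)). Shh, the ventralising signal, was not tested, with values from 0.04 to 0.31 FPKM.

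Most neural crest genes rose. Of 12 tested genes 8 rose by at least 1 and none fell by as much (median 1.61). Sox10, a factor of migrating crest, was at 0.51 and 0.59 FPKM in WT and at 14.2 and 14.3 FPKM in KO (3.299 ± 0.092 (SE), adjusted p = 1.8e-16). Tfap2b, a crest and border factor, was at 0.52 and 0.43 FPKM in WT and at 16.03 and 14.9 FPKM in KO (3.48 ± 0.084 (SE)), and Foxd3 was at 0.94 and 0.76 FPKM in WT and at 7.24 and 7.27 FPKM in KO (2.16 ± 0.057 (SE)). All 3 were under 1 FPKM in both WT libraries. Sox9, Sox8 and Snai1 were called lower, with changes of -0.47, -0.66 and -0.43. Twist1, a factor of cranial crest mesenchyme, was at 1.73 and 1.41 FPKM in WT and at 19.7 and 20.6 FPKM in KO (3.04 ± 0.11 (SE)). The summed level of the list was 24.6 and 23.5 FPKM in WT and 88.1 and 89.0 FPKM in KO, well under that of the dorsal neural tube list in KO (477 and 485 FPKM).

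Other derivatives of the border and surface ectoderm did not rise as groups. Of 12 tested placode genes 1 rose by at least 1 and 2 fell (median -0.23). The one that rose was Foxe3, a lens placode factor also known from the midbrain, at 0.49 and 0.23 FPKM in WT and at 14.7 and 16.1 FPKM in KO (3.598 ± 0.074 (SE)). Eya2, which marks the panplacodal region, fell by 2.58 on the log2 scale. Of 8 tested surface ectoderm genes 5 fell by at least 1 (median -1.2), among them Epcam (15.6 and 15 FPKM in WT, 3.7 and 3.83 FPKM in KO) and Krt18 (25.6 and 24.03 FPKM in WT, 8.65 and 7.96 FPKM in KO). Krt5, Krt14 and Trp63, which define epidermal cells, stood at 0.04 FPKM or less in all 4 libraries.

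Wnt ligands bind Frizzled receptors and stabilise beta-catenin, which acts with TCF/LEF factors on target genes. Of 13 tested Wnt ligand genes 7 rose by at least 1 and 2 fell: Wnt1, Wnt3, Wnt3a, Wnt4, Wnt5a, Wnt9a and Wnt10b rose, and Wnt11 and Wnt5b fell. After Wnt1, Wnt3 reached 8.02 and 8.21 FPKM in KO and Wnt9a 7.51 and 7.37 FPKM, with all WT values of both under 1 FPKM. Fzd10, known from the dorsal neural tube and midbrain, had the largest rise in log2 of the genes named here, at 1.44 and 1.14 FPKM in WT and at 129 and 129.5 FPKM in KO (5.83 ± 0.07 (SE), adjusted p = 4.1e-22). Fzd5, the receptor of the eye field, was at 41.9 and 42.5 FPKM in WT and at 1.12 and 1.16 FPKM in KO (-4.34 ± 0.043 (SE), adjusted p = 3.1e-23), and Fzd8, of the anterior forebrain, was at 23.8 and 23.6 FPKM in WT and at 5.22 and 5.13 FPKM in KO (-1.999 ± 0.056 (SE)). In total 2 of 10 Frizzled genes rose by at least 1 (Fzd10 and Fzd9) and 4 fell (Fzd5, Fzd8, Fzd4 and Fzd1).

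Feedback and target genes of the pathway rose in part. Of 12 listed genes 4 rose by at least 1, 6 more were called higher, and Ccnd1 was called lower (median 0.67). Among all tested genes 30.9% were called higher and 34.2% lower. Axin2, a general target of the pathway, was at 6.06 and 5.92 FPKM in WT and at 56.98 and 56.7 FPKM in KO (3.05 ± 0.082 (SE), adjusted p = 9.4e-17). Sp5, a zinc finger target, was at 2.85 and 2.66 FPKM in WT and at 18.99 and 19.2 FPKM in KO (2.42 ± 0.09 (SE)), and Apcdd1 was at 4.26 and 3.71 FPKM in WT and at 24.5 and 25 FPKM in KO (2.37 ± 0.084 (SE)). The KO values of each of these lay several-fold above both WT values. Nkd1, on chromosome 8, was at 15.1 and 14.9 FPKM in WT and at 40.6 and 40.9 FPKM in KO (1.38 ± 0.11 (SE)). The motif CTTTGAT, the core site of TCF/LEF factors, was searched on both strands in the 250 bases before the annotated start. It lay in 1 of the 7 promoters of this list that were matched by symbol to the RefSeq promoter table (GRCm38.p6), against 2.22% of 11236 promoters of tested genes, 2.05% of those of genes at least 1 higher and 2.38% of those at least 1 lower. Of the 5 matched promoters of the optic vesicle list, which fell, 1 held it (Vax1). None did in the caudal diencephalon, midbrain, dorsal neural tube, proneural and eye field lists. The promoter of the Wnt target list that held it was of Sp5. It is shown because its gene had the second largest change among the list's targets, with the motif in capitals (chr2:70474673-70474922, plus strand).
Sp5: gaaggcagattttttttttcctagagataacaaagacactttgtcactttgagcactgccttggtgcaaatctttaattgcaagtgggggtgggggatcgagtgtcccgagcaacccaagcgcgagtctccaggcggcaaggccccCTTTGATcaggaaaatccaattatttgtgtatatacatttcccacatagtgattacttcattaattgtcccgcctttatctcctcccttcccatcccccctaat

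The antagonists of the pathway were mixed. Of 9 tested genes 1 rose by at least 1 and 4 fell (median -0.25). Shisa2, which retains Frizzled proteins inside the cell, was at 215 and 211 FPKM in WT and at 7.69 and 8.06 FPKM in KO (-4.59 ± 0.048 (SE), adjusted p = 4.3e-23), 1 of the 15 largest falls. Dkk1, Dkk3 and Sfrp5 fell by 1.06, 1.52 and 1.16 on the log2 scale from WT levels of 1.27 to 6.29 FPKM. Frzb, a secreted Frizzled-like protein, rose from 6.33 and 6.41 to 15.3 and 16.1 FPKM. The abundant Sfrp1 and Sfrp2 were close between groups, with changes of 0.07 and -0.25.

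Other signalling pathways were split between their members. In the BMP list 5 of 14 genes rose by at least 1 and 3 fell (median 0.84). Id1, a direct target of BMP signals, was at 61.02 and 61.9 FPKM in WT and at 254 and 262 FPKM in KO (2.05 ± 0.025 (SE)), and Id3, another, was at 156 and 156 FPKM in WT and at 428 and 429 FPKM in KO (1.45 ± 0.04 (SE)). The ligand gene Bmp4 fell, at 15.8 and 13.3 FPKM in WT and at 3.48 and 4.97 FPKM in KO (-1.58 ± 0.33 (SE)). Nog, which encodes the antagonist noggin, rose and Fst, which encodes follistatin, fell. In the Hedgehog list 3 of 9 tested genes rose by at least 1, all of them co-receptors: Gas1, Cdon and Boc, with changes from 1.83 to 1.94. The targets Gli1 and Ptch1 were called lower, with changes of -0.99 and -0.497.

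In the FGF and ERK feedback list 1 of 11 genes rose by at least 1 (Fgfr3, 2.32 and 2.93 FPKM in WT, 17.4 and 17.5 FPKM in KO) and 1 fell (Etv5, 10.9 and 11.4 FPKM in WT, 4.22 and 4.19 FPKM in KO), and 8 were called lower in all. Of 12 tested genes of the Fgf family by name 4 fell by at least 1 (Fgf4, Fgf5, Fgf9 and Fgf13) and none rose by as much. For retinoic acid, Cyp26a1, the enzyme that breaks it down, was at 11.5 and 10.8 FPKM in WT and at 0.12 and 0.17 FPKM in KO (-3.41 ± 0.1 (SE), adjusted p = 4.5e-16). The cellular retinoic acid-binding protein gene Crabp2 was at 640.2 and 616 FPKM in WT and at 1623 and 1586 FPKM in KO (1.35 ± 0.041 (SE)), 1 of the 8 largest rises in FPKM. Of 6 tested Nodal pathway genes 3 fell by at least 1, Lefty1 and Lefty2 among them.

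Proneural and early neuronal genes were higher in KO. Of 11 listed proneural and Notch ligand genes 9 were tested, and all 9 rose by at least 1 (median 2.16). Among all tested genes 5.32% did. The filter, over all 32 libraries, let in genes near 0 in WT and left out genes low throughout. Neurog1, a proneural factor of dorsal and sensory progenitors, was at 0.26 and 0.31 FPKM in WT and at 18.5 and 17.9 FPKM in KO (3.902 ± 0.073 (SE), adjusted p = 4.1e-19). Neurod1, a neuronal differentiation factor, was at 0.39 and 0.42 FPKM in WT and at 7.12 and 7.77 FPKM in KO (2.59 ± 0.092 (SE)). Gadd45g, which is expressed in cells about to leave the cycle, was at 5.99 and 6.05 FPKM in WT and at 73.4 and 76.4 FPKM in KO (3.43 ± 0.071 (SE)). The groups did not overlap in any of the 9, as for nearly all genes that changed by at least 1. Dll1 and Dll3, which encode Notch ligands, had changes of 1.01 and 2.16, and Dll1 was already at 17.7 and 18.2 FPKM in WT. The change of Dll1 was 0.96 without the first KO library and 0.99 without the first WT library.

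Proneural factors bind E-boxes, and the E-box letters CAGCTG, which read the same on both strands, were searched in the same 250 bases. They lay in 3 of the 8 promoters of this list that were matched, against 11.7% of the 11236 promoters of tested genes, 13.2% of those at least 1 higher and 10.8% of those at least 1 lower. In the Wnt target list they lay in 2 of 7 promoters (Nkd1 and Tcf7) and in the caudal diencephalon list in 1 of 10 (Barhl1). No promoter of the midbrain, dorsal neural tube, eye field and optic vesicle lists held them. With 8 promoters the share of the proneural list is a description. The promoters are shown because their genes, Dll3, Hes6 and Gadd45g, act beside or after the proneural factors, with the motif in capitals and from RefSeq, GRCm38.p6: Dll3 at chr7:28301786-28302035, minus strand, Hes6 at chr1:91414039-91414288, minus strand and Gadd45g at chr13:51846425-51846674, plus strand.
Dll3: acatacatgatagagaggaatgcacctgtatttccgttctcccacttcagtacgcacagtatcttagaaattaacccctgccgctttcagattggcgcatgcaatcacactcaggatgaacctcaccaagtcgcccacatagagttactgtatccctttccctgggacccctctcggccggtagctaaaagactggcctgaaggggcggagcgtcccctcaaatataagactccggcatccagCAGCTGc
Hes6: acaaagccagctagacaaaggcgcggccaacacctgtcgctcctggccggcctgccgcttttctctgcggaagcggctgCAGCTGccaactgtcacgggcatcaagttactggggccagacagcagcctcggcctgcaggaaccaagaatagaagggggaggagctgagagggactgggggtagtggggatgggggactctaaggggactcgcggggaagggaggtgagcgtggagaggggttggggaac
Gadd45g: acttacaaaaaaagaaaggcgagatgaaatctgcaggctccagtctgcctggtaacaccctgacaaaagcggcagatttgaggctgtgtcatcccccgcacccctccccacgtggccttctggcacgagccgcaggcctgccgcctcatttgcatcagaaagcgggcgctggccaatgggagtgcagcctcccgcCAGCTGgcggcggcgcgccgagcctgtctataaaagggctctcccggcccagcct

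Of 17 tested neuronal genes 10 rose by at least 1 and 1 fell (median 1.03). Tubb3, the neuronal tubulin gene, was at 29.5 and 28.9 FPKM in WT and at 268 and 264 FPKM in KO (3.15 ± 0.028 (SE), adjusted p = 2.0e-23), and it lies on chromosome 8. Nhlh1, an early neuronal factor, was at 0.25 and 0.26 FPKM in WT and at 10.1 and 11.1 FPKM in KO (3.21 ± 0.067 (SE)), and Gap43, a growth cone gene, was at 4.49 and 3.9 FPKM in WT and at 47.6 and 47.2 FPKM in KO (3.22 ± 0.081 (SE)). Pou4f1, a factor of sensory and dorsal midbrain neurons, was at 1.5 and 1.72 FPKM in WT and at 21.5 and 22.9 FPKM in KO (3.15 ± 0.12 (SE)). These early genes were low in both WT libraries, Tubb3 apart. Dcx, a gene of newborn neurons, rose, to 1.55 and 1.43 FPKM in KO. Of the genes of mature neurons, Snap25 was not called (adjusted p = 0.72), Syt1 fell to 0.49 and 0.67 FPKM, and Slc17a6, Gad1, Gad2 and Th were at 0.44 FPKM or less in all 4 libraries.

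General progenitor genes were closer between the groups. Sox2, which marks neural progenitors throughout, was at 197 and 196 FPKM in WT and at 211 and 210.5 FPKM in KO (0.101 ± 0.041 (SE)), and Sox1, Sox3 and Nes had changes of 0.24, -0.27 and 0.28. Hes1 and Hes5, Notch effectors that hold progenitors back, moved in opposite directions. Hes1 was at 190.4 and 174 FPKM in WT and at 27.6 and 27.3 FPKM in KO (-2.69 ± 0.075 (SE), adjusted p = 1.9e-16), and Hes5 was at 14.4 and 14.7 FPKM in WT and at 144 and 147 FPKM in KO (3.24 ± 0.18 (SE), adjusted p = 4.3e-12). Hes3, a Hes gene of midbrain and isthmus progenitors, was at 0.54 and 1.06 FPKM in WT and at 39.4 and 41.05 FPKM in KO (4.53 ± 0.11 (SE)). Fabp7, a radial glia gene, was at 13.6 and 13.6 FPKM in WT and at 191 and 187 FPKM in KO (3.71 ± 0.11 (SE)), and Pou3f2 and Pou3f3 had changes of 2.92 and 3.17. In all, 5 of 14 progenitor genes rose by at least 1 and 1 fell. Of 10 proliferation genes none changed by as much (median -0.25), with 7 called lower and 2 higher, beside 34.2% and 30.9% of all tested genes.

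Endoderm genes, which mark a non-neural cell type of such cultures, were lower in KO. Of 15 tested genes of extraembryonic and definitive endoderm, 14 fell by at least 1, the other was called lower, and none rose (median -2.24). Sox17, a defining endoderm factor, was at 20.9 and 20.1 FPKM in WT and at 0.29 and 0.07 FPKM in KO (-4.19 ± 0.14 (SE), adjusted p = 2.0e-15). Gata4 was at 9.79 and 10.2 FPKM in WT and at 0.04 and 0.08 FPKM in KO (-3.37 ± 0.067 (SE)), and Afp, a product of visceral endoderm, was at 2.76 and 3.05 FPKM in WT and at 0 and 0 FPKM in KO. The summed level of the list was 675.7 and 674.5 FPKM in WT and 141.2 and 140.3 FPKM in KO, most of it from Sparc and Col4a1, which other cells share. Of its defining genes Afp was at 0 in both KO libraries, and Gata4, Gata6 and Sox7 were at 0.08 FPKM or less. This list was already lower in KO at day 0, with a median of -0.92, and at day 4, with -1.31. The part of this difference in the eye and forebrain results was not tested.

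Kdr, a receptor gene of vascular and other mesoderm and of retinal progenitors, was at 11.7 and 11.4 FPKM in WT and at 0.25 and 0.22 FPKM in KO (-3.34 ± 0.048 (SE)), and Hand1 was at 2.97 and 2.24 FPKM in WT and at 0.17 and 0.32 FPKM in KO (-1.53 ± 0.094 (SE)), these being the 2 of 6 tested mesendoderm genes that fell by at least 1, with none that rose. T, Mixl1 and Mesp1 were at 0.4 FPKM or less in all 4 libraries. In the trophoblast list, Peg10 (91.1 and 94.4 FPKM in WT, 11.99 and 11.99 FPKM in KO) and Esx1 fell by at least 1, and Elf5 was at 0.14 FPKM or less.

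Genes of pluripotency were at lower levels in KO than in WT. Of 15 genes of naive and core pluripotency 9 fell by at least 1 and none rose (median -1.15). Pou5f1, the core factor, was at 868 and 900.3 FPKM in the WT stem cells of day 0, and at day 6 it was at 37.6 and 38.2 FPKM in WT and at 12.4 and 11.1 FPKM in KO (-1.61 ± 0.052 (SE), adjusted p = 1.4e-15). Utf1 was at 38.4 and 35.2 FPKM in WT and at 4.21 and 4.16 FPKM in KO (-2.86 ± 0.05 (SE)), and Nanog was called lower with a change of -0.84. The WT values were above the KO values in each of them. Of 9 formative genes Fgf5 and Dnmt3b fell by at least 1 and Pou3f1, also a neural gene, rose, at 4.67 and 4.19 FPKM in WT and at 19.3 and 18.99 FPKM in KO (1.89 ± 0.055 (SE)).

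Among the 15 largest falls were genes outside these groups. Dlk1, an imprinted gene that encodes a membrane protein related to Notch ligands, was at 295 and 284 FPKM in WT and at 1.77 and 1.62 FPKM in KO (-6.75 ± 0.12 (SE), adjusted p = 1.9e-19), the largest fall in log2 of the genes named here. Mest, also imprinted, had the largest fall in FPKM, at 3439 and 3509 FPKM in WT and at 833 and 817 FPKM in KO (-2.07 ± 0.06 (SE)). Dlk1, Mest and Peg10 are all expressed from the paternal allele. Srgn, which encodes the proteoglycan serglycin, was at 50.2 and 48.2 FPKM in WT and at 0.07 and 0.1 FPKM in KO (-5.53 ± 0.23 (SE)), and had a change of -2.43 already at day 0. Irs4, Pga5 and Ctsh completed the falls, with changes of -4.82, -4.56 and -4.43.

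Among the largest rises outside the lists, Wfdc1, a secreted protease inhibitor-like gene on chromosome 8, was at 1.57 and 2 FPKM in WT and at 92.6 and 96.7 FPKM in KO (5.11 ± 0.07 (SE)). Cx3cl1, which encodes the chemokine fractalkine and is also on chromosome 8, was at 2.88 and 2.77 FPKM in WT and at 88.4 and 86.7 FPKM in KO (4.53 ± 0.11 (SE)). Dbx1, a homeobox gene of intermediate neural tube progenitors and the diencephalon, was at 1.69 and 1.26 FPKM in WT and at 45.5 and 46.6 FPKM in KO (4.25 ± 0.077 (SE)), and Vtn, which encodes vitronectin, was at 3.77 and 2.35 FPKM in WT and at 75.7 and 73.8 FPKM in KO (4.24 ± 0.11 (SE)). All 4 were under 4 FPKM in both WT libraries. By FPKM, the largest rises included mitochondrial genes (mt-Atp8, mt-Nd1, mt-Nd2 and mt-Co2), Eef1a1 and Crabp2, and the largest falls after Mest were of Npm1, Rpl13a, Ptma, Mif, Gapdh, Rpl7a and Rps18. The changes of these named genes lay between -0.65 and 0.59, Crabp2 and Mest apart. The call of mt-Atp8 was lost without the first WT library (adjusted p = 0.065) or the first KO library (adjusted p = 0.081), and that of mt-Co2 without the first WT library (adjusted p = 0.097) or the second KO library (adjusted p = 0.16).

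Adhesion and guidance genes, which set apart cells of different regions, changed in both directions. Of 13 tested classical cadherins, Cdh8, Cdh11 and Cdh22 rose by at least 1 and Cdh1, Cdh6 and Cdh20 fell. Cdh8 was at 0.89 and 0.75 FPKM in WT and at 21.3 and 20.4 FPKM in KO (3.58 ± 0.048 (SE)), and Cdh20 was at 7.71 and 7.94 FPKM in WT and at 0.59 and 0.52 FPKM in KO (-2.505 ± 0.057 (SE)). Of 21 tested ephrin and Eph genes 6 rose by at least 1 and 3 fell, and Efnb1 was at 16.9 and 16.9 FPKM in WT and at 79.1 and 82.1 FPKM in KO (2.19 ± 0.061 (SE)). Of 32 tested collagens 7 rose and 4 fell, Col9a1, expressed in the optic vesicle and retina, from 20.4 and 21.9 FPKM in WT to 0.25 FPKM in both KO libraries (-4.15 ± 0.058 (SE)).

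Of the m6A machinery, 2 of 14 genes rose by at least 1 and none fell by as much (median 0.67). They were Rbm15, at 5.7 and 6 FPKM in WT and at 20.8 and 20.7 FPKM in KO (1.67 ± 0.047 (SE), adjusted p = 1.8e-16), and Rbm15b, at 27.3 and 27.4 FPKM in WT and at 65.4 and 67.8 FPKM in KO (1.25 ± 0.058 (SE)), which encode adaptors of the writer complex. Wtap, another subunit, and the reader genes Ythdf1, Ythdf2 and Ythdc1 were called higher with changes from 0.69 to 0.96, and Mettl14, the partner of Mettl3, had a change of -0.14 whose call was lost without the second WT library (adjusted p = 0.12) or the second KO library (adjusted p = 0.095). Of 10 p53 target genes Aen rose by at least 1 and none fell by as much (median 0.23).

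Most genes that differed by at least 1 at day 6 had not differed by as much on the days before. Of the 866 genes at least 1 higher at day 6, 11 (1.27%) were also at least 1 higher in the stem cells of day 0, 159 (18.4%) on day 2 and 279 (32.2%) on day 4, where 0.455%, 3.55% and 3.55% of all tested genes were. Of the 764 lower genes, 43 (5.63%) were as much lower in stem cells, 94 (12.3%) on day 2 and 195 (25.5%) on day 4, where 0.915%, 1.18% and 2% of all tested genes were. The difference between genotypes itself differed between day 6 and day 4 for 7808 genes (48%) and between day 6 and day 0 for 9258 genes (56.9%), by the interaction contrasts of the same fit.

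The course from day 0 can be described within each genotype. Of the 866 higher genes, 399 rose by at least 1 in KO from day 0 while WT stayed within 1, and 212 rose by as much in both. Another 72 fell by at least 1 in WT while KO stayed within 1, and 16 fell by as much in both. Of the 764 lower genes, 273 rose by at least 1 in WT while KO stayed within 1, 96 rose in both, 160 fell in both, and 78 fell in KO while WT stayed within 1. These counts are means of 2 libraries compared by size, with no test.

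Eye and forebrain genes separated at different times. Rax was at 30.7 and 31.5 FPKM in WT and at 1.2 and 1.21 FPKM in KO at day 4, and Six3 at 73.8 and 74.3 against 7.08 and 7.18 FPKM. In KO both were higher at day 4 than at day 6. Six6 was under 1 FPKM in both genotypes at day 4, and its difference appeared by day 6 (interaction -5.8, adjusted p = 1.7e-20). Otx2 was close between the genotypes at day 4, at 193 and 199 against 200.3 and 203 FPKM. At day 6 KO kept that level while WT was at the lower level given above (interaction 0.91, adjusted p = 1.2e-12).

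The caudal genes also came in an order. Irx3 was at 4.67 and 4.13 FPKM in KO at day 2, at 95.1 and 95.99 FPKM at day 4 and hardly moved after that, and its interaction was 0.105, adjusted p = 0.32. Irx5 had a day 4 change of 4.48, and its interaction was called, at 0.61, adjusted p = 0.00067. Irx1 rose later, from 31.1 and 29.2 FPKM at day 4 to the 149 and 148 FPKM of day 6 (interaction 2.08, adjusted p = 2.8e-09). In KO at day 4 Dmbx1 was at 8.4 and 8.55 FPKM, Wnt1 at 7.14 and 7.14 FPKM and Pax3 at 2.57 and 2.33 FPKM, and all 3 were higher at day 6. Msx1, Zic1, Sox10 and Neurog1 had day 4 changes of 0.43, 0.19, 0.15 and 0.17, far under those of day 6. En1 was transient: it was at 9.2 and 9.21 FPKM in KO against 0.33 and 0.37 FPKM in WT at day 4, and low in both at day 6 (interaction -2.68, adjusted p = 6.6e-12).

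**Figure D4:**
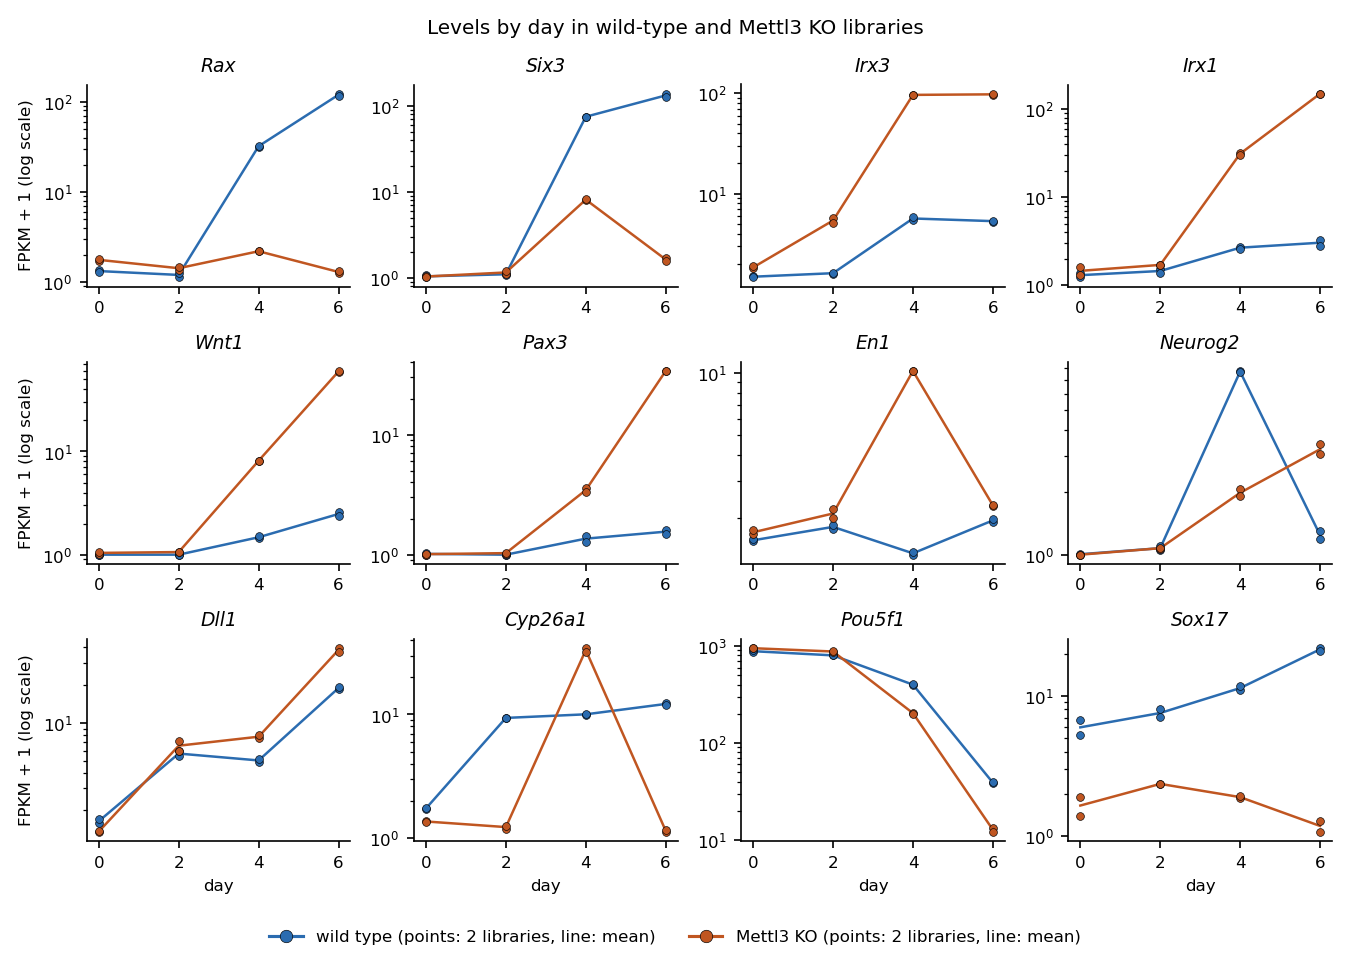
FPKM + 1 (log scale) of 12 genes at days 0, 2, 4 and 6 in WT (blue) and KO (orange), with a point for each of 2 libraries and a line through the means. Rax and Six3 climb in WT from day 2, Irx3 climbs in KO by day 4 and Irx1, Wnt1 and Pax3 go on climbing to day 6, while En1 and Cyp26a1 peak in KO at day 4 and the genotypes change order between days 4 and 6 for Neurog2 and Cyp26a1.

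The same genes at day 6 are given for description in KO cells that overexpress a construct, grown with or without dexamethasone. The sample titles name the construct WTMTL3-GRBD. Without dexamethasone Rax was at 0.79 and 1.03 FPKM, Six3 at 10.7 and 12.2 FPKM and Irx1 at 40.9 and 43.1 FPKM. With dexamethasone Rax was at 53.9 and 55.5 FPKM, Six3 at 48.4 and 50.9 FPKM and Irx1 at 11.2 and 11.98 FPKM. For Rax, Six3 and Irx1 alike the dexamethasone libraries lay between the KO and WT libraries of that day. Pax3 was at 19.3 and 19.6 FPKM without and 3.82 and 3.79 FPKM with it, and Wnt1 at 37.9 and 40.6 FPKM without and 15.1 and 15.1 FPKM with it. Sox17, the endoderm gene, was at 0.16 and 0.38 FPKM without and 2.92 and 2.85 FPKM with it.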

How the data were processed

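PolyA RNA of mouse embryonic stem cells and organoids was sequenced as paired-end reads, and the submitters' processing notes name STAR, Cuffdiff and mm10, with no version given in the sources used here. The authors deposited FPKM values per gene for all 32 libraries in 1 table, per the file headers, and neither counts nor their filters were used here. Of its 55492 rows, 21161 were at 0 in every library, and 99.5% were matched by gene ID to GENCODE M21 for names, biotypes and positions.

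FPKM values were tested as log2(FPKM + 1) with limma 3.58.1 in R 4.3.3 (eBayes with trend), 1 fit of 16 group means over all 32 libraries with 16 residual degrees of freedom, two-sided, with Benjamini-Hochberg adjustment over the 16276 genes with at least 1 FPKM in at least 2 libraries. A call is an adjusted p under 0.05. Changes between days 4 or 0 and day 6 were interaction contrasts of that fit. Data were simulated for this comparison over 16276 genes, with 200 changed. In these, 78.2% of changes of 0.5, 91.2% of changes of 1 and 98.8% of changes of 2 on the log2 scale were called. Of the calls, 4.42% were false. Far fewer genes were changed there than were called in the data, and the noise was drawn independently from the spread of the same fit. These shares hold for that setting only and do not cover spread between separate cultures.

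Depth was estimated from the low FPKM values, which in each library lie on steps worth 1 fragment: 87.1% to 91.9% of them lay no more than 0.2 from a whole number of fragments, where chance gives 40%. The libraries of the series held 28.35 to 53 M (mega) fragments. Steps that depend on gene length do not give whole counts for all genes, so no count test was run. The labels give all libraries the same batch date. Duplicates were close (Pearson r across genes of 0.9929 in WT and 0.9955 in KO at day 6), and at day 6 their squared differences were a median of 5.26 times the counting noise in WT and 4.87 times in KO. Each was counted as a library, as the labels give them; separate preparations of 1 RNA could give the same spread.

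Named genes are Mettl3, members of 36 lists of identity and pathway genes, and, among called protein-coding genes with a symbol other than Gm or Rik whose groups did not overlap, the 15 largest rises and falls in log2 and the 8 largest rises and falls in mean FPKM. Gene families were described by counts. The members and lists were chosen with earlier results of these data known. Promoters came from a RefSeq table (GRCm38.p6) matched by symbol, and motifs were counted in 250 bases before the start. Alternatives were a pseudocount of 0.1, no filter, a mean of at least 5 FPKM, median-of-ratios rescaling, only the compared groups, a replicate block, each compared library left out, no chromosome 8 genes, and limma's treat at 1.5-fold. Some genes are not reported here by name.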

Additional observations from a re-analysis of the deposited data

Results flagged for a closer look

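The difference between KO and WT itself changed with the day for a large share of genes: the interaction contrast between day 6 and day 4 was called for 7808 genes, and that between day 6 and day 0 for 9258 genes, of the 16276 tested. Of the genes that differed by at least 1 on both day 4 and day 6, 474 had the same direction on both days. With the interaction called as well, 10 went from higher to lower in KO and 4 from lower to higher. Those that are members of the gene lists were the following 5.

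Cyp26a1, which encodes an enzyme that breaks down retinoic acid, had a mean of 32.2 FPKM in KO against 9.02 FPKM in WT at day 4 and of 0.15 against 11.2 FPKM at day 6, a difference between the days of -5.14 (adjusted p = 9.3e-16). Ntn1, the floor plate guidance cue, went from 14.6 against 6.62 FPKM to 2.62 against 12.9 FPKM, a difference of -2.96 (adjusted p = 3.0e-13). Fst, which encodes the BMP and activin antagonist follistatin, went from 14.4 against 3.9 FPKM to 8.92 against 23.2 FPKM, a difference of -2.95 (adjusted p = 6.5e-11). All 3 were higher in KO first and lower later. Dkk1, a secreted Wnt antagonist, was at 4.49 against 0.99 FPKM at day 4 and at 0.54 against 2.2 FPKM at day 6, a difference of -2.53 (adjusted p = 9.1e-13). Neurog2, a proneural factor, took the opposite course, at 0.99 FPKM in KO against 6.66 FPKM in WT at day 4 and at 2.23 against 0.24 FPKM at day 6, a difference of 3.32 (adjusted p = 3.8e-16). Each group had 2 libraries, and in these 5 genes the libraries of KO and WT did not overlap on either day. What sets the change of order was not tested.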

How the results depend on the processing

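No value changed direction under the settings tried, and the counts over all genes and over the main identity lists that are not given here stayed within 1.5 times their main value. Over all lists, 24 counts moved further with the filter at 5 FPKM, 15 with a pseudocount of 0.1, 1 under treat and 6 without a library. With a pseudocount of 0.1, 2873 genes changed by at least 1 (1597 lower), and 1 midbrain and 1 neural crest gene fell by as much. With a filter at a mean of 5 FPKM over all libraries, which leaves fewer genes to test, 3606 genes were called lower and 840 changed by at least 1 (477 higher, 363 lower). By construction fewer list members were then tested: those at least 1 higher were 4 of the caudal diencephalon, 3 of the midbrain, 5 of the dorsal neural tube, 2 of the neural crest, 4 proneural, 4 neuronal and 1 telencephalic, and those lower were 5 of endoderm, 0 of optic vesicle and 0 neuronal.

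Leaving out each compared library in turn gave 9617 to 9793 called genes (4606 to 4657 higher, 5009 to 5136 lower), of which 1648 to 1668 changed by at least 1 (879 to 896 higher, 758 to 780 lower), and interaction counts of 6978 to 7211 for day 4 and 8572 to 9001 for day 0. A group with 1 library is then assumed to vary like the others. List counts moved to 5 to 6 eye field genes lower, 10 to 11 neuronal and 8 to 9 proneural genes higher. Of the smaller lists, 1 library decided whether 1 or 2 hindbrain and FGF feedback genes, and 0 or 1 Hedgehog genes, fell by at least 1. Of the listed or named genes, 31 lost their call without at least 1 library, all with changes under 1. Under limma's treat at 1.5-fold 1540 genes passed the size rule, and 121 of the listed or named genes lost their call. Without chromosome 8 genes 1493 changed by at least 1.

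The replicate numbers do not pair the libraries: the differences between duplicates correlated at -0.06 between WT and KO at day 6, and from -0.09 to 0.13 over 120 pairs of groups. A fit with the replicate number as a block called 10558 genes, 1628 of them changed by at least 1, with 7775 and 9238 interactions for days 4 and 0. No count test could be run on FPKM values, and changes of genes near 1 FPKM are understated.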

Other observations

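The transcripts of the genes that changed by at least 1 are given here by their makeup, as a description. In the longest annotated transcript (GENCODE M21), the letters GGACT, a common context of m6A, occurred at a median of 1.18 per kb in 782 protein-coding genes at least 1 higher, 1.02 per kb in 651 at least 1 lower and 1.05 per kb in 13583 tested protein-coding genes. The median GC content was 55.1%, 49.4% and 50.7%, and the median length 3052, 2603 and 3033 bases. The part of GC content and length in the motif's rate was not tested. Over bins of genes by number of GGACT, the median change went from -0.09 with no motif (1112 genes) to 0.07 with over 10 (575 genes), while the median length went from 1410 to 8583 bases.

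Rows for Cre and tdTomato in the table were at 0 in all libraries. The eGFP row stood at 31.4 and 32.3 FPKM in WT at day 4. In KO cells that overexpress WTMTL3-GRBD it was at 132 and 139 FPKM with dexamethasone at day 6 and at 0.10 and 0.30 FPKM without it.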
